A study of Mus musculus with 2 samples.

Results

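Neuroectoderm/Glia and CNS Neuron, 2 of the 16 cell types that the authors named in E11.5 mouse embryos, both held cells that transcribed neuronal genes, and they are compared here gene by gene. Cells were taken by the authors' cell type name in their table of cells, which gave 502 Neuroectoderm/Glia cells and 532 CNS Neuron cells, or 1034 of the 5678 cells in that table. The cells came from 4 suspensions that were tagged, pooled and captured as 1 droplet library. F0_8 and F0_9 were each 1 founder embryo made by electroporating zygotes with mRNA of the transposase mPBase and microinjecting a piggyBac transgene, EGFP under the CAG promoter with a linked DNA barcode. F1_1 was a single F1 embryo, and cells of 2 other F1 embryos had been mixed to make F1_mix, an artificial mosaic. All embryos were C57BL/6J, carried the transgene and were dissociated whole, so no suspension lacked the transgene. The unique molecular identifiers (UMIs, one per captured transcript) of each gene were summed over the cells of a cluster in a suspension, and the 4 sums of one cluster were compared with the 4 sums of the other, paired by suspension. Because the clusters were drawn from the expression of these same cells, the comparison describes which genes set the clusters apart in every suspension, and it is no independent test that the clusters differ. EGFP was removed by the authors before clustering and is the exception.

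Neurons arise in the embryonic neural tube and ganglia when a dividing progenitor leaves the cell cycle under the control of basic helix-loop-helix (bHLH) proneural factors such as the neurogenins and ATOH1. A newly committed cell expresses Delta ligands, which activate Notch receptors on its neighbours and hold them as progenitors. It then switches off the proneural genes in turn and builds axonal cytoskeleton, transport motors, ion channels, transmitter receptors and synaptic vesicles. At E11.5 the spinal cord, hindbrain, forebrain and cranial and dorsal root ganglia hold neurons at every step of that sequence.

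Neuroectoderm/Glia cells numbered 164, 151, 79 and 108 in F0_8, F0_9, F1_1 and F1_mix, the order in which values for the 4 suspensions are given throughout, and CNS Neuron cells numbered 126, 151, 110 and 145. The 8 sums held 990463 to 1860085 UMIs. The median cell held 10786 to 12146 UMIs in Neuroectoderm/Glia and 10071.5 to 11689.5 in CNS Neuron, with median mitochondrial shares of 2.01 to 2.47% over the 8 sums. No cell barcode was shared between suspensions. Markers of other cells were low in both clusters. The summed level of 9 erythroid genes was 1.17 to 1.38 UMIs per 10000 in Neuroectoderm/Glia and 1.23 to 1.45 in CNS Neuron. Of the 6 that passed the filter 0 were called, beside 38.5% of all genes tested. The sums of 8 neural crest and Schwann cell precursor genes (0.468 to 0.693 against 0.985 to 1.23) and of 6 muscle genes (0.0645 to 0.0808 against 0.103 to 0.128) were higher in CNS Neuron without overlap. Of the former 2 passed the filter and both (100%, beside 18.0% of all genes tested) were called higher in CNS Neuron, and of the latter none passed. For single genes, the suspensions of the clusters did not overlap for 35.7% of all genes tested. Levels below are UMIs per 10000 gene UMIs of the sum unless another scale is named.

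The name Neuroectoderm/Glia went against neuronal and neural progenitor markers. Tubb3, the neuronal beta-tubulin, had a UMI in 502 of 502 Neuroectoderm/Glia cells and in 530 of 532 CNS Neuron cells, and its level averaged 34.4 ± 3.52 (SD, n = 4) and 31.8 ± 2.69. The log2 difference of Tubb3 was 0.11 ± 0.05 (SE) with an adjusted p of 0.1, which was 0.0223 when F0_8 was left out. Without F1_1 the log2 difference was 0.054 (adjusted p = 0.373). The 18 neural progenitor genes summed to 5.40 to 7.57 in Neuroectoderm/Glia against 16.1 to 20.1 in CNS Neuron and 63.9 to 71.6 in the cluster named Neuronal Progenitor. Sox2, the transcription factor of neural stem cells, averaged 0.206 in Neuroectoderm/Glia, 0.866 in CNS Neuron and 4.22 in Neuronal Progenitor. Fabp7, a radial glial fatty acid binding protein, ran the same way at 0.141, 1.98 and 14.7. The 11 genes of astrocytes and oligodendrocytes summed to 1.71 to 1.96 in Neuroectoderm/Glia and 2.32 to 3.37 in CNS Neuron, and most of that was Slc1a2, a glutamate transporter, at 1.41 and 2.12. Only 4 of the 11 passed the filter. With the cells of each type pooled, their sum was at most 3.10 in any of the 16 cell types (Midgut), so a low sum cannot weigh on the glial part of the name. Slc1a2 passed the test as higher in CNS Neuron (adjusted p = 0.0135) but not without F1_1 (0.0509) or F1_mix (0.0667). The cluster named Neuroectoderm/Glia therefore held cells with neuronal transcripts and fewer progenitor transcripts than CNS Neuron, and the name is used below only as the authors' label.

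Of 9913 genes that passed the filter on low counts, 3816 (38.5%) differed between the clusters at an adjusted p-value under 0.05, the threshold for a call throughout. Neuroectoderm/Glia was higher at 2035 of them (20.5%) and CNS Neuron at 1781 (18.0%), and 4664 had an unadjusted p-value under 0.05. With a log2 fold change of at least 1 as well, 794 genes (8.01%) were higher in Neuroectoderm/Glia and 544 (5.49%) in CNS Neuron. The median log2 fold change over all genes tested was -0.01, so the scaling centred the comparison near 0. In sums over cells, fewer cells that express a gene and less of its RNA per cell cannot be told apart.

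The 12 genes with the largest differences toward Neuroectoderm/Glia were led by Nrg3. Nrg3, a neuregulin that binds the receptor ERBB4, stood at 6.77, 8.02, 2.65 and 5.21 UMIs per 10000 in Neuroectoderm/Glia and at 0.121, 0.103, 0.107 and 0.0573 in CNS Neuron, a log2 fold change of 5.88 ± 0.19 (SE; adjusted p = 4.76e-08). The lowest Neuroectoderm/Glia suspension, F1_1, was still far above every CNS Neuron suspension. Nrg3 had a UMI in 60.2% of Neuroectoderm/Glia cells and 6.58% of CNS Neuron cells. The latter share was below the 7.76% of Myoblast/Cardiomyocyte cells, which were deeper (a median of 18369 UMIs against 11437.5 and 10898.5). With every cell thinned to 5000 UMIs the 3 shares were 52.1%, 3.3% and 4.06%. Whether the UMIs in CNS Neuron were background or low expression was not tested. In Neuronal Progenitor 29.3% of cells had a UMI of Nrg3, and 17.3% after thinning. Galntl6, of the family that starts mucin-type glycosylation, stood at 2.19, 2.81, 1.32 and 1.1 against 0.0640, 0.0726, 0.0153 and 0.0458 (log2 fold change 5.17 ± 0.17). Cell adhesion was represented by Chl1, a relative of L1CAM, at 3.46, 3.40, 1.85 and 3.22 against 0.0996, 0.302, 0.0764 and 0.0286, and by the cadherin Cdh18 (log2 fold change 5.07 ± 0.46). Metabotropic and ionotropic glutamate receptor genes were among the first 12, with the metabotropic Grm7 at 4.57 ± 0.29 and the AMPA receptor subunit Gria1 at 4.06 ± 0.30. The others were Sncg (gamma-synuclein, 4.21), Csmd3 (4.19), the glypican Gpc5 (4.15), Vstm2l (3.97), Car10 (3.96) and Lrfn5, a synaptic adhesion protein (3.93). For each of the 12, which were chosen for large differences of one sign, every Neuroectoderm/Glia suspension was above every CNS Neuron suspension, and over all genes tested the suspensions of the clusters did not overlap for 35.7%.

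Among the 12 genes with the largest differences toward CNS Neuron were the proneural genes Neurod4 and Neurog1. Neurod4, a bHLH factor of nascent neurons, gave 1 UMI over all Neuroectoderm/Glia cells and 337 over CNS Neuron cells, a ratio of levels of 328 with a 95% counting interval of 58.4 to 12988. Tlx2, a homeobox gene of sensory and enteric neurons, gave 1 UMI against 381 (ratio 371, 66.1 to 14679). The proneural factor Neurog1 stood at 0, 0.0116, 0.0202 and 0.00729 in Neuroectoderm/Glia and at 0.711, 0.653, 1.18 and 1.06 in CNS Neuron, a log2 fold change of -6.53 ± 0.28. Gadd45g, a stress and growth arrest gene that is switched on as neural progenitors commit, had the lowest p-value of the table, with levels of 0.156, 0.151, 0.192 and 0.168 against 4.61, 5.57, 6.73 and 6.31 (log2 fold change -5.11 ± 0.09, adjusted p = 3.12e-09). Within each cluster its 4 suspensions lay close together, and the clusters were far apart. Pax3, of dorsal neural tube and crest progenitors, followed at -5.66 ± 0.20, with levels of 1.20 to 1.71 in CNS Neuron and 0.0108 to 0.0505 in Neuroectoderm/Glia. The rest were Notch1 (-4.87), Eya2, a transcriptional cofactor with phosphatase activity (-4.36), Rfx4 (-4.17), the cell cycle factor E2f1 (-4.04), cyclin Ccnd2 (-3.92), the antiproliferative gene Btg2 (-3.92) and Tead2, a partner of YAP (-3.82). The suspensions of the clusters did not overlap for these 12 either, which were chosen in the same way.

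**Figure D1:**
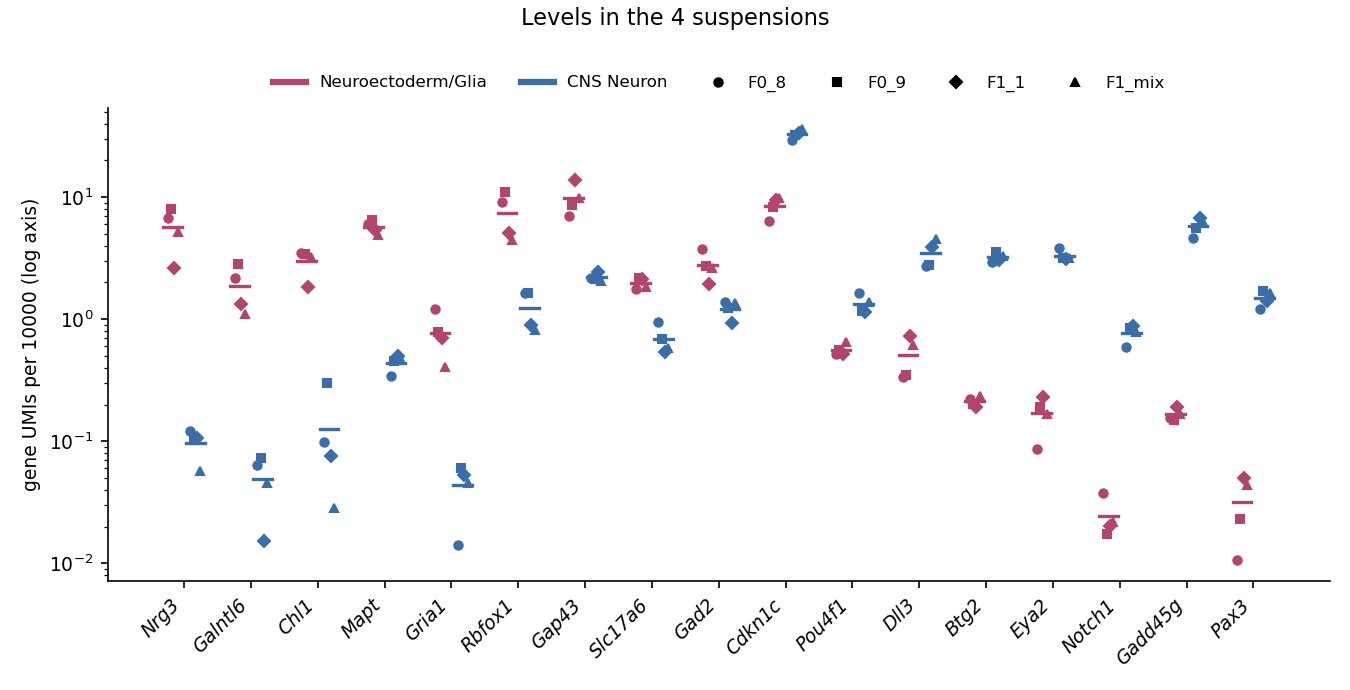
Levels of 17 named genes in the 4 suspensions of Neuroectoderm/Glia (red) and CNS Neuron (blue), as gene UMIs per 10000 on a log axis, with 1 symbol shape per suspension and a bar at the mean of 4. The ranges of the clusters do not overlap for any gene drawn, from Nrg3 at 5.66 against 0.0970 on the left to Pax3 at 0.0320 against 1.5 on the right.

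The plot of levels by suspension sets these genes side by side. It also draws genes whose difference was smaller but steady, such as Cdkn1c, and shows that the suspensions kept their distance from the other cluster at levels that ranged over more than 3 orders of magnitude.

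Proneural bHLH proteins bind E-boxes, hexamers of the form CANNTG, so the promoters of a few genes from each end are shown to let the sequence be seen beside the levels. Each line is 300 bases of RefSeq sequence (GRCm38.p6), from 250 before to 50 after the start of the gene, read 5′ to 3′ on its own strand, with the hexamers CAGCTG and CAGATG (or its reverse complement CATCTG) in capitals. The first pair was higher in Neuroectoderm/Glia (Nrg3, chr14:39473039-39473338, minus strand; Galntl6, chr8:58911578-58911877, minus strand) and the second pair in CNS Neuron (Gadd45g, chr13:51846425-51846724, plus strand; Neurog1, chr13:56252131-56252430, minus strand).
Nrg3: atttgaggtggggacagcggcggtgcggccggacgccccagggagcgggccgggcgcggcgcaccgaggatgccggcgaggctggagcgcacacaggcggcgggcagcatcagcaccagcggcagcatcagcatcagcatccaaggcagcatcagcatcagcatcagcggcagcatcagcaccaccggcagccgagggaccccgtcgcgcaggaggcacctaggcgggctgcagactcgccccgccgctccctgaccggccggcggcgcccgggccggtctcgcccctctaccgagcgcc
Galntl6: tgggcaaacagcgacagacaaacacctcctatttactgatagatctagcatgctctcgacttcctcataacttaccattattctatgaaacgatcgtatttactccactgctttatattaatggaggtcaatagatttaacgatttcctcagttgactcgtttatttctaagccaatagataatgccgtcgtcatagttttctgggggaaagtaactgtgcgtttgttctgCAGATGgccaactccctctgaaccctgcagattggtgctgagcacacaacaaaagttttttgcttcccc
Gadd45g: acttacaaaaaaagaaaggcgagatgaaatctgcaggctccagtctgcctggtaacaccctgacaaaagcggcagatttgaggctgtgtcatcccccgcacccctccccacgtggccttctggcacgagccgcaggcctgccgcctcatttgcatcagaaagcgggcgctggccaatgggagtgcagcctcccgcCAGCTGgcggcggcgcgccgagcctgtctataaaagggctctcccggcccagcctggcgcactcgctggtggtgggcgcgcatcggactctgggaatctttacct
Neurog1: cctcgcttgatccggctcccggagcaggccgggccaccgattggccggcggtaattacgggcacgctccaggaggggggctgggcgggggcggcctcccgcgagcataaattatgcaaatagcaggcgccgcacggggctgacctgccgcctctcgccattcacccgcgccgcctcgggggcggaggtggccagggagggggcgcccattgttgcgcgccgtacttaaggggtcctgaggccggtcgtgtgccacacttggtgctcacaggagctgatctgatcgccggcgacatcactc
One CAGCTG lies 55 bases before the start of Gadd45g and 1 CAGATG 19 bases before that of Galntl6, while neither hexamer is in the window of Nrg3 or Neurog1. The windows of Nrg3, Gadd45g and Neurog1 are GC-rich (74.3%, 62.3% and 69.3%) and that of Galntl6 is not (41.7%). CAGCTG is its own reverse complement, and the hexamers searched do not contain one another. Of 32851 promoters in the table, 16.3% held CAGCTG and 17.2% CAGATG or CATCTG, which covers both strands. By symbol, 6238 of the 9913 genes tested had a promoter in the table, and among these the shares were 13.7% and 9.57%. They were 17.5% and 10.3% of the 416 promoters of genes called with a log2 fold change of at least 1 toward Neuroectoderm/Glia, and 18.3% and 12.5% of the 327 toward CNS Neuron. The hexamers were thus about as frequent at one end of the comparison as at the other, and a match says only that these letters are in the window.

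By median log2 fold change, genes of neuronal commitment were the list that stood furthest toward CNS Neuron. Of 28 proneural and nascent neuron genes, 27 passed the filter, 22 (81.5%, beside 18.0% of all genes tested) were called higher in CNS Neuron and 2 (7.41%, beside 20.5%) in Neuroectoderm/Glia. Their median log2 fold change was -2.20, beside -0.01 over all genes tested. Atoh1, which specifies the most dorsal interneurons and cerebellar granule cells, gave 2 UMIs against 270 (ratio 131, 36.0 to 1090). Ptf1a, of GABAergic dorsal horn neurons, gave 0 UMIs against 65 and was at least 21.1-fold higher in CNS Neuron, taking 3 counts over the group as the floor. At least 1 UMI of Neurog1, Neurog2, Neurod1, Neurod4 or Atoh1 was found in 73.3% of CNS Neuron cells (68.2 to 79.3% over suspensions) and 28.5% of Neuroectoderm/Glia cells (24.4 to 35.4%). In Myoblast/Cardiomyocyte cells the share was 4.97%, and with every cell thinned to 5000 UMIs the 3 shares were 64.3%, 19.8% and 1.25%. Both members that were higher in Neuroectoderm/Glia were so by little. Sox4, a SOX factor of postmitotic neurons, had a log2 fold change of 0.14 ± 0.05, and its call was lost without F0_8 (adjusted p = 0.112), F0_9 (0.167) or F1_1 (0.0969). Cbfa2t3, a corepressor of the ETO family, had 0.29 ± 0.10, and its call was lost without any one suspension (0.0702 to 0.176).

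The Notch pathway moved with the proneural genes. Of 17 genes 12 passed the filter, 9 (75%, beside 18.0% of all genes tested) were called higher in CNS Neuron and none higher in Neuroectoderm/Glia, with a median of -1.45. The receptor gene Notch1 stood at 0.590, 0.841, 0.886 and 0.779 in CNS Neuron and 0.0376, 0.0174, 0.0202 and 0.0219 in Neuroectoderm/Glia. Dll3, a Delta family member that acts inside the signalling cell, had 2.75, 2.79, 3.88 and 4.55 against 0.339, 0.347, 0.727 and 0.620 (log2 fold change -2.83 ± 0.11), and a UMI of it was found in 82.1% of CNS Neuron cells and 32.7% of Neuroectoderm/Glia cells, beside 4.19% of Myoblast/Cardiomyocyte cells (66.0%, 18.6% and 1.88% after thinning). Mfng, a glycosyltransferase that modifies Notch receptors, had a log2 fold change of -3.20 ± 0.14. Hes5, a target of active Notch, had -3.56 ± 0.27, but its level in CNS Neuron (0.429) was well below that in Neuronal Progenitor (3.70). Dll3 ran the other way, at 3.49 in CNS Neuron and 0.384 in Neuronal Progenitor. Dll3 was thus highest in CNS Neuron among these 3 clusters and Hes5 in Neuronal Progenitor, as values side by side. Signalling between the clusters was not tested.

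Progenitor and cell cycle genes were also higher in CNS Neuron, at levels far under those of progenitors. Of 18 progenitor genes 17 passed, 13 (76.5%, beside 18.0% of all genes tested) were called higher in CNS Neuron and 1, the phosphatase gene Ptprz1 of radial glia (log2 fold change 0.84 ± 0.13), in Neuroectoderm/Glia. Fabp7 had -3.78 ± 0.20, the BMP target Id1 -3.65 ± 0.26, and Phgdh, the first enzyme of serine synthesis, -2.90 ± 0.36. Of 25 cell cycle genes 16 passed and 11 (68.8%) were called, all higher in CNS Neuron (median -1.20). The G1 cyclin gene Ccnd1 stood at 1.93, 1.69, 3.51 and 2.91 against 0.435, 0.0753, 0.0303 and 0.102. The helicase subunit gene Mcm3 stood at 0.121 on average against 0.00874, and the mitotic ubiquitin ligase gene Ube2c at 0.508 against 0.0351. In Neuronal Progenitor the same genes averaged 1.65 and 6.85, and the 25 summed to 81.0 to 89.9 there, 9.17 to 11.8 in CNS Neuron and 2.82 to 3.56 in Neuroectoderm/Glia.

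The cycle inhibitor Cdkn1c (p57) was higher in CNS Neuron. It stood at 6.32, 8.24, 9.51 and 9.90 in Neuroectoderm/Glia and at 29.6, 32.0, 33.5 and 35.9 in CNS Neuron, a log2 fold change of -1.97 ± 0.06, and averaged 3.86 in Neuronal Progenitor. CNS Neuron thus had the highest level of p57 of the 3 clusters together with an intermediate level of the cell cycle list. The other inhibitors that were called split: Cdkn2d was higher in Neuroectoderm/Glia (0.93 ± 0.17), and Cdkn1b in CNS Neuron (-0.52 ± 0.16), a call that was lost without F0_8 (adjusted p = 0.157, with a log2 fold change of -0.33) or F0_9 (0.115).

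Genes of the axon and its cytoskeleton stood on the other side. Of 24 cytoskeletal genes 23 passed, 20 (87.0%, beside 20.5% of all genes tested) were called higher in Neuroectoderm/Glia and 1, Dpysl4 (-0.33 ± 0.07, with an adjusted p of 0.0507 by DESeq2), in CNS Neuron, with a median of 0.89. Mapt, which encodes the axonal microtubule protein tau, stood at 5.97, 6.54, 5.35 and 4.93 in Neuroectoderm/Glia and 0.341, 0.454, 0.504 and 0.464 in CNS Neuron (log2 fold change 3.68 ± 0.12). Tau transcripts were found in 92.8% of Neuroectoderm/Glia cells, 30.8% of CNS Neuron cells and 11% of Myoblast/Cardiomyocyte cells, and in 79.8%, 16.9% and 3.91% after thinning. Ina, a neurofilament-like protein, had 16.0, 18.2, 20.1 and 19.0 against 2.75, 4.26, 4.79 and 4.78, and the growth cone gene Gap43 had 6.96, 8.66, 13.8 and 9.76 against 2.18, 2.15, 2.42 and 2.06. Stmn2, a microtubule regulator of growth cones, was higher by a log2 of 1.15 ± 0.04. Unlike Tubb3, which was near equal, these genes separated the clusters in each suspension. Of 17 genes of axonal transport 16 passed, 12 (75%) were called higher in Neuroectoderm/Glia and 1 in CNS Neuron. The kinesin heavy chains divided, with the neuronal Kif5a at 1.06 ± 0.10 and the ubiquitous Kif5b at -0.36 ± 0.06.

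Secretory and excitable genes were mostly higher in Neuroectoderm/Glia. For synaptic vesicles 26 of 29 genes passed, 18 (69.2%, beside 20.5% of all genes tested) were called higher in Neuroectoderm/Glia and 1, the complexin gene Cplx2 (-1.84 ± 0.26), in CNS Neuron. The active zone gene Erc2 had 3.97, 3.79, 3.26 and 3.25 against 0.889, 1.15, 0.985 and 0.968, and the vesicle protein Syt4 had a log2 fold change of 2.41 ± 0.14. For dense core vesicles 10 of 13 passed and 8 (80%) were called, all higher in Neuroectoderm/Glia. The largest was Pcsk1n, an inhibitor of the prohormone convertase PCSK1, at 5.26, 5.22, 3.97 and 3.84 against 0.555, 0.484, 0.405 and 0.532. For voltage-gated channels 29 of 34 passed, 22 (75.9%) were called higher in Neuroectoderm/Glia and 1 in CNS Neuron, with a median of 1.21. Kcnd2, a channel of the transient A-type potassium current, had a log2 fold change of 2.72 ± 0.14, Kcnh7 2.53 ± 0.18 and the sodium channel gene Scn9a 2.46 ± 0.30. The exception was the M-current channel gene Kcnq5 at -0.77 ± 0.25, and its call was lost without F0_8 (adjusted p = 0.386, with a log2 fold change of -0.33) or F1_mix (0.103).

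**Figure D2:**
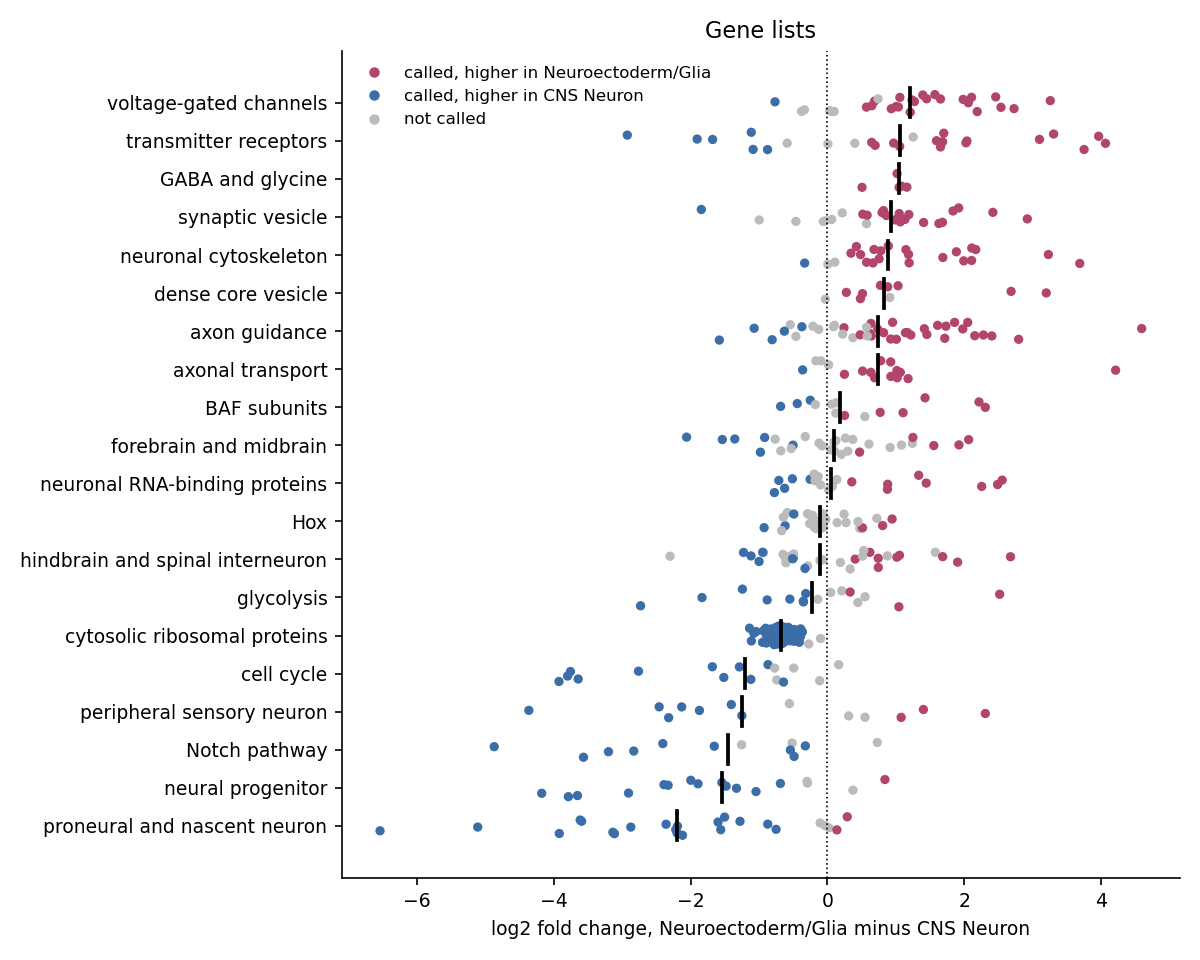
Log2 fold changes (Neuroectoderm/Glia minus CNS Neuron) of the members of 20 gene lists that passed the filter and had more than 3 UMIs in each cluster, 1 point per gene, in red or blue where called and gray where not. Black ticks mark the median of all members that passed, from -2.20 for proneural genes at the bottom to 1.21 for voltage-gated channels at the top, and the dotted line the median of all genes tested (-0.01).

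The plot of gene lists orders these groups by their median. Commitment, progenitor, Notch, peripheral sensory and cell cycle lists lie at the bottom. Channel, receptor, GABA and glycine, and synaptic vesicle lists lie at the top, and lists of regional identity in between with members on both sides.

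Transmitter receptor genes were called in both directions. Of 29 genes 25 passed, 15 (60%, beside 20.5% of all genes tested) were called higher in Neuroectoderm/Glia and 6 (24%, near the 18.0% of all genes tested) in CNS Neuron. The 4 largest toward Neuroectoderm/Glia were Gria1, the GABA-A subunit gene Gabra2 (3.96 ± 0.56), the NMDA subunit gene Grin2b (3.75 ± 0.31) and the kainate subunit gene Grik1 (3.3 ± 0.33). Those toward CNS Neuron included nicotinic acetylcholine receptor genes, with Chrna3 at 0.733, 0.714, 0.924 and 1.21 against 0.333, 0.318, 0.555 and 0.474 and Chrnb4 at -2.92 ± 0.35, and the glycine receptor gene Glra1 (-1.90 ± 0.27). Gabrg3 was called there as well (-1.68 ± 0.26) although its suspensions overlapped. No called glutamate receptor gene of the list was higher in CNS Neuron.

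Transmitter identity differed in the share of cells that showed any. Slc17a6, the vesicular glutamate transporter VGLUT2, stood at 1.77, 2.17, 2.12 and 1.82 in Neuroectoderm/Glia and 0.946, 0.690, 0.542 and 0.578 in CNS Neuron (log2 fold change 1.52 ± 0.15). All 5 genes of GABA and glycine transmission (100%, beside 20.5% of all genes tested) were called higher in Neuroectoderm/Glia. They were led by Gad2, a GABA synthesizing enzyme, at 3.78, 2.71, 1.94 and 2.63 against 1.37, 1.23, 0.939 and 1.35. The vesicular transporter Slc32a1 had 1.05 ± 0.15, the glycine transporter Slc6a5 1.02 ± 0.27 (0.62 without F0_8) and Gad1 0.50 ± 0.12 (adjusted p of 0.084 by DESeq2). Slc17a6 had a UMI in 48.0% of Neuroectoderm/Glia cells (45.1 to 53.2% over suspensions), 20.3% of CNS Neuron cells (17.2 to 24.6%) and 1.40% of Myoblast/Cardiomyocyte cells. At least 1 of Gad1, Gad2, Slc32a1 and Slc6a5 had a UMI in 44.0%, 27.6% and 3.26% of these cells. Thinned to 5000 UMIs, the shares were 39.3%, 15.1% and 0.156% for Slc17a6 and 42.7%, 24.1% and 1.09% for the inhibitory genes. Cells with both kinds were rare, 9 of 502 (1.79%) in Neuroectoderm/Glia and 6 of 532 (1.13%) in CNS Neuron, where the products of the shares are 21.1% and 5.61%. Cells with neither numbered 49 (9.76%) in Neuroectoderm/Glia and 283 (53.2%) in CNS Neuron. Most Neuroectoderm/Glia cells thus showed 1 transmitter class and seldom both, and most CNS Neuron cells showed none at this depth.

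Other transmitters were rare. Slc18a3, the vesicular acetylcholine transporter, was called higher in Neuroectoderm/Glia at 0.0699, 0.104, 0.212 and 0.248 against 0.0213, 0.00605, 0.0229 and 0.0229. Chat, which makes acetylcholine, did not pass the filter, at 0.0108, 0.0753, 0.131 and 0.109 against 0, 0, 0.00764 and 0.0401. Tyrosine hydroxylase (Th), of catecholamine synthesis, was called higher in Neuroectoderm/Glia at 1.89 ± 0.33. Of 20 neuropeptide genes only 5 passed and 3 (60%, beside 20.5% of all genes tested) were called, all higher in Neuroectoderm/Glia. Somatostatin (Sst) stood at 1.73, 1.04, 1.22 and 3.72 against 0.576, 0.0847, 0.848 and 0.527, and Cartpt at 2.63 ± 0.30. Adcyap1 (PACAP) had 0.73 ± 0.19, a call that was lost without F1_1 (adjusted p = 0.0647) or F1_mix (0.0668).

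Axon guidance genes were mostly higher in Neuroectoderm/Glia, but Dcc was not. Of 44 genes 41 passed, 26 (63.4%, beside 20.5% of all genes tested) were called higher in Neuroectoderm/Glia and 5 (12.2%, beside 18.0%) in CNS Neuron, with a median of 0.73, yet the summed level of the list was 116 to 130 in Neuroectoderm/Glia and 135 to 153 in CNS Neuron. That order came from Dcc, the netrin receptor of commissural axons, at 88.9, 85.2, 94.7 and 81.5 in CNS Neuron against 28.8, 28.4, 29.4 and 30.8 (log2 fold change -1.58 ± 0.04). Cntn2 (TAG-1), another protein of commissural axons, was also higher in CNS Neuron (-0.63 ± 0.09), as were the ephrin receptors Epha3 (-1.07 ± 0.09) and Epha4 (-0.81 ± 0.09). L1cam stood at 0.806, 0.984, 0.757 and 0.853 in Neuroectoderm/Glia and 0.135, 0.151, 0.0993 and 0.103 in CNS Neuron. Unc5d, of a receptor family that mediates repulsion, had 2.40 ± 0.20 and Sema6d 2.28 ± 0.11.

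RNA-binding proteins and chromatin remodelling subunits that exchange during neuronal maturation were tested as 2 small lists. All 20 RNA-binding genes passed, 8 were called higher in Neuroectoderm/Glia and 5 in CNS Neuron, with a median of 0.04, or 40% and 25% beside 20.5% and 18.0% of all genes tested. The splicing factor gene Rbfox1 stood at 9.13, 11, 5.06 and 4.45 against 1.64, 1.63, 0.893 and 0.813, while its paralog Rbfox3 (NeuN) was higher in CNS Neuron at 2.46, 2.10, 1.56 and 1.69 against 1.47, 1.33, 0.858 and 1.12. Celf4 had 1.44 ± 0.05 and Celf5 2.25 ± 0.16. Elavl4 (HuD) had -0.51 ± 0.09 and Elavl3 (HuC) -0.25 ± 0.05, and Ptbp1, the repressor of neuronal exons, -0.77 ± 0.15. Of the 14 BAF complex and partner genes 6 (42.9%) were called higher in Neuroectoderm/Glia and 3 (21.4%, near the 18.0% of all genes tested) in CNS Neuron. The subunits of the neuronal complex led, with Actl6b (BAF53B) at 1.84, 1.68, 1.46 and 1.39 against 0.270, 0.327, 0.389 and 0.303 and Dpf1 (BAF45B) at 2.21 ± 0.11. Ss18 had -0.68 ± 0.14, but -0.38 with an adjusted p of 0.149 when cells were thinned to 5000 UMIs. Actl6a (BAF53A), the progenitor counterpart of Actl6b, had -0.25 ± 0.08, though the call on Actl6a was lost without any one suspension (adjusted p = 0.0547 to 0.0931).

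Sensory neuron genes were called in both directions. Of 20 genes of peripheral sensory neurons in the matrices 13 passed, 7 were called higher in CNS Neuron and 3, the neurotrophin receptors Ntrk2 (2.30 ± 0.30), Ntrk3 (1.40 ± 0.16) and Ngfr (1.08 ± 0.19), in Neuroectoderm/Glia, or 53.8% and 23.1% beside 18.0% and 20.5% of all genes tested. Eya2 stood at 3.84, 3.16, 3.10 and 3.18 against 0.0860, 0.191, 0.232 and 0.168. Tlx3, of sensory and dorsal horn excitatory neurons, had 2.0, 1.32, 1.64 and 1.67 against 0.226, 0.220, 0.596 and 0.591. Pou4f1 (BRN3A) had -1.25 ± 0.12, and Prrxl1, also of sensory and dorsal horn neurons, -2.32 ± 0.35. Isl1, shared by sensory and motor neurons, was called higher in CNS Neuron (-1.40 ± 0.40, adjusted p = 0.0193), but not without F0_8 (0.0806) or F0_9 (0.0862). Cells with UMIs of Isl1, Pou4f1 and Tlx3 together numbered 43 of 532 (8.08%) in CNS Neuron and 6 of 502 (1.20%) in Neuroectoderm/Glia, beside 0.621% of Myoblast/Cardiomyocyte cells, and 6.41%, 0.613% and 0.156% after thinning. Somatic sensory ganglia express these 3 factors together, and so do some dorsal spinal interneurons, so the combination alone does not place the cells. Markers of neural crest and Schwann cell precursors were low in both clusters, with the 8 genes summing to 0.985 to 1.23 in CNS Neuron and 0.468 to 0.693 in Neuroectoderm/Glia, and their part in the sensory values was not tested.

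Calls on regional identity genes did not lean one way. Among 37 genes of hindbrain and spinal interneurons 33 passed, with 9 called higher in Neuroectoderm/Glia and 7 in CNS Neuron. Among 35 of forebrain and midbrain 30 passed, with 5 and 6. Among 39 Hox genes 29 passed, with 3 and 3. These are 48.5%, 36.7% and 20.7% called, beside 38.5% of all genes tested. Zfhx3, a homeodomain gene of spinal projection neurons, stood at 13.8, 17, 13.1 and 13.8 against 2.73, 3.85, 4.81 and 4.22, and Zfhx4 had 1.05 ± 0.12. The homeobox gene Hmx2 had 2.67 ± 0.23. Lhx1, broad among spinal interneurons, differed by 0.40 ± 0.12 (0.24 without F0_8), and its partner Lhx5 by -0.29 ± 0.10 with an adjusted p of 0.0515 (0.0301 without F1_1, and -0.15 with an adjusted p of 0.266 without F0_9). Lbx1, of dorsal interneurons, had -0.51 ± 0.17, and its call was lost without F0_9 (0.0513), F1_1 (0.0954) or F1_mix (0.141). Reln, the secreted protein of Cajal-Retzius cells, had 3.31, 2.47, 2.13 and 2.01 against 0.854, 0.496, 0.527 and 0.510, and Ebf2, shared by those cells and other early neurons, ran the other way at 1.58, 1.88, 2.12 and 2.60 against 8.22, 8.78, 8.59 and 7.87. The single cell types behind these regional genes were not separated here.

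Motor and autonomic neuron genes were called in both directions. All 10 motor neuron genes passed and 5 (50%, beside 38.5% of all genes tested) were called, Isl1 in CNS Neuron and the 3 Onecut genes and Lhx3 in Neuroectoderm/Glia. Onecut3 gave 80 UMIs in Neuroectoderm/Glia and 0 in CNS Neuron, at least 27.4-fold higher. Onecut2 had 1.29, 1.95, 3.39 and 3.38 against 0.896, 0.587, 1.34 and 1.26, and Onecut1 1.48 ± 0.21. Lhx3 had 1.5 ± 0.52, a call that was lost without F0_8 (adjusted p = 0.116), F1_1 (0.0576) or F1_mix (0.304, with a log2 fold change of 0.69). Of 8 autonomic genes 5 passed, 3 (60%) were called, with 2 higher in Neuroectoderm/Glia, among them Gata3 (1.71 ± 0.32), and Ednrb (-2.43 ± 0.43), an endothelin receptor of crest derivatives, in CNS Neuron.

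Ribosomal protein genes were higher in CNS Neuron. Of 84 cytosolic ribosomal protein genes 82 passed and 80 (97.6%, beside 18.0% of all genes tested) were called, all higher in CNS Neuron, with a median log2 fold change of -0.67. Their share of the median cell's UMIs was 7.34, 7.76, 8.34 and 9.16% in Neuroectoderm/Glia, 11.3, 11.8, 13.4 and 13.3% in CNS Neuron and 14.7 to 16.5% in Neuronal Progenitor. Rpsa, for example, had 11.2, 11.6, 13.0 and 13.5 against 22.7, 24.0, 27.1 and 27.3. Of 13 genes of the mitochondrial genome 2, mt-Co1 and mt-Cytb, were called, both higher in Neuroectoderm/Glia, a share of 15.4% that is below the 38.5% of all genes tested. For glycolysis 16 of 18 genes passed, 3 (18.8%, near the 20.5% of all genes tested) were called higher in Neuroectoderm/Glia and 8 (50%, beside 18.0%) in CNS Neuron. The pairs of isoenzymes divided: Ldha had 0.414, 0.307, 1.29 and 1.15 against 1.3, 2.09, 3.73 and 3.45 and the hexokinase gene Hk2 had -2.73 ± 0.48, while Ldhb (0.33 ± 0.08), Hk1 (1.04 ± 0.16) and the phosphofructokinase gene Pfkp (2.51 ± 0.37) were higher in Neuroectoderm/Glia. Ldha was also higher in the F1 suspensions than in the founders within each cluster. Of 11 immediate early genes, which respond to dissociation, 8 passed, Jun (0.79 ± 0.15) and Dusp1 (0.47 ± 0.12, lost without F0_9 at an adjusted p of 0.0551) were called higher in Neuroectoderm/Glia and Ier2 (-0.80 ± 0.11) in CNS Neuron, and the 3 called are 37.5% of the 8, near the 38.5% of all genes tested. Their summed levels overlapped at 7.76 to 10.5 and 8.11 to 9.61.

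Gene length set the ends of the comparison apart. Of the 12 largest genes toward Neuroectoderm/Glia 10 were longer than 100 kb, with a median length of 713 kb, and of the 12 toward CNS Neuron 2 were, with a median of 14.9 kb. Among all genes tested, 469 spanned over 300 kb, and 59.5% of them were called higher in Neuroectoderm/Glia and 15.8% in CNS Neuron, with a median log2 fold change of 0.70. The 1260 genes of 100 to 300 kb had 29.4% and 22.6% and a median of 0.04, and shorter genes had medians of -0.04 to 0.00. In the single suspensions the median log2 ratio of the longest genes was 0.71, 0.67, 0.52 and 0.67. Genes over 100 kb took 23.3, 22.1, 20.0 and 18.1% of the median cell's UMIs in Neuroectoderm/Glia and 18.4, 18.5, 18.3 and 17.4% in CNS Neuron, a gap of 4.91 percentage points in F0_8 and 0.698 in F1_mix. The sources used here do not say whether reads in introns were counted, and their part in the length values was not tested.

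**Figure D3:**
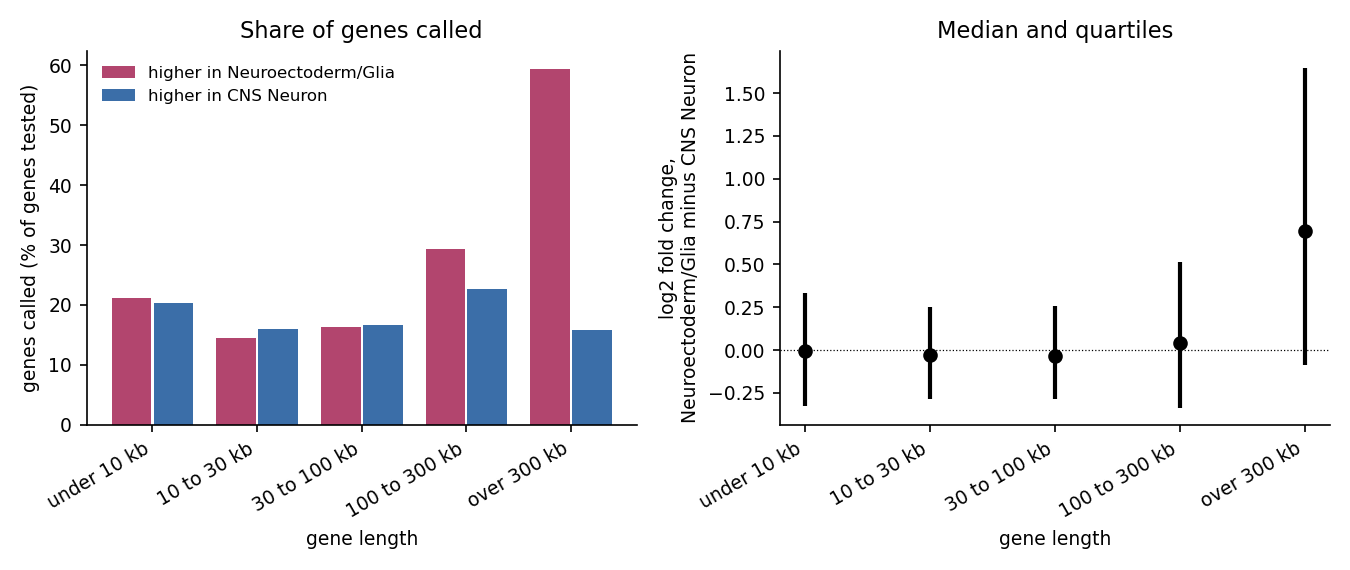
Left, percentage of genes tested that were called higher in Neuroectoderm/Glia (red) or CNS Neuron (blue) by gene length, and right, the median log2 fold change (points) with its quartiles (lines). Genes over 300 kb had 59.5% called higher in Neuroectoderm/Glia and a median of 0.70, and genes of 100 to 300 kb had 29.4% and a median of 0.04.

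The plot by gene length shows that bins up to 100 kb were called in near-equal shares in both directions. The bin of 100 to 300 kb had 370 genes called higher in Neuroectoderm/Glia and 285 in CNS Neuron, and the bin over 300 kb had 279 and 74.

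EGFP, the reporter left out of clustering, was higher in CNS Neuron in 4 of 4 suspensions. It stood at 14.3, 12.7, 33.3 and 14.9 UMIs per 10000 in Neuroectoderm/Glia and 19.0, 16.4, 38.1 and 18.7 in CNS Neuron, ratios of 1.33, 1.29, 1.15 and 1.25. F1_1 was the highest in both clusters and stood apart by more than the clusters differed, while the other 3 suspensions lay close together. The paired fit gave a log2 fold change of -0.33 ± 0.04 (adjusted p = 1.12e-04), and the fit without the pairing -0.30 with an adjusted p of 0.501. An exact sign-flip permutation test of the 4 log2 ratios (mean -0.32, SD 0.09) gave a two-sided p of 0.125, the smallest that 4 pairs allow. Neuronal Progenitor had 11.1, 10.8, 21.8 and 11.8, below both neuronal clusters in each suspension. The study reports weak transgene expression in several cell types, among them hepatocytes and erythrocytes, and ascribes it to low activity of the CAG promoter there. A lower share of cells with the transgene and less RNA per cell were not separated.

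The plot of paired values also gives depth and number a place. The median cell held 1.07, 1.1, 1.04 and 1.04 times as many UMIs in Neuroectoderm/Glia as in CNS Neuron (mean log2 ratio 0.09, SD 0.04, exact two-sided sign-flip permutation p = 0.125, the smallest that 4 pairs allow). There were 1.3, 1.0, 0.718 and 0.745 Neuroectoderm/Glia cells per CNS Neuron cell, so both founders were above both F1 suspensions. This difference was not tested, and with 2 suspensions against 2 an exact permutation test could not pass the threshold. Generation cannot be told apart from other differences between the embryos.

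The cluster difference itself was compared between founders and F1. An interaction of cluster and generation was called at 13 of 9913 genes (0.131%), with 744 at an unadjusted p-value under 0.05. The count was 5 with DESeq2, 227 with no filter on low counts and 36, 60, 21 and 35 when F0_8, F0_9, F1_1 or F1_mix was left out. For 9 of the 13 the difference was lower in the founders, in the sense that Neuroectoderm/Glia minus CNS Neuron was less positive or more negative there. Prkg1, a cGMP-dependent kinase, had the lowest p-value (interaction log2 fold change -2.81 ± 0.16, adjusted p = 1.54e-04), with 1.40, 0.880, 4.13 and 2.38 in Neuroectoderm/Glia and 3.99, 3.13, 1.69 and 1.16 in CNS Neuron. Its order turned around: CNS Neuron was higher in both founders and Neuroectoderm/Glia in both F1 suspensions. Isl1 stood at 0.570, 0.382, 1.76 and 1.55 against 3.33, 2.57, 1.61 and 2.50, a wide gap in the founders and a narrow one in F1 (-2.30 ± 0.25, adjusted p = 0.0190). Thsd7b had a gap of the same direction that narrowed, at 1.03, 0.619, 1.82 and 0.861 against 10.5, 6.46, 3.31 and 3.05 (-2.02 ± 0.25). Cacna1e, a calcium channel gene, Cdkn1a, the cycle inhibitor p21, and the granin gene Chgb were called as well, with interaction log2 fold changes of -3.78 ± 0.41, -3.40 ± 0.44 and -2.05 ± 0.27, and these 3 calls were lost with DESeq2. Cacna1e and Cdkn1a were scarce, with highest levels of 0.562 and 0.545 over the 8 sums. The call on Cdkn1a was lost without F1_1 (adjusted p = 0.0704), a fit in which F1_mix alone stands for F1 and is assumed to vary as the founders do. EGFP was not called in this test (interaction log2 fold change -0.11, adjusted p = 0.786).

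**Figure D4:**
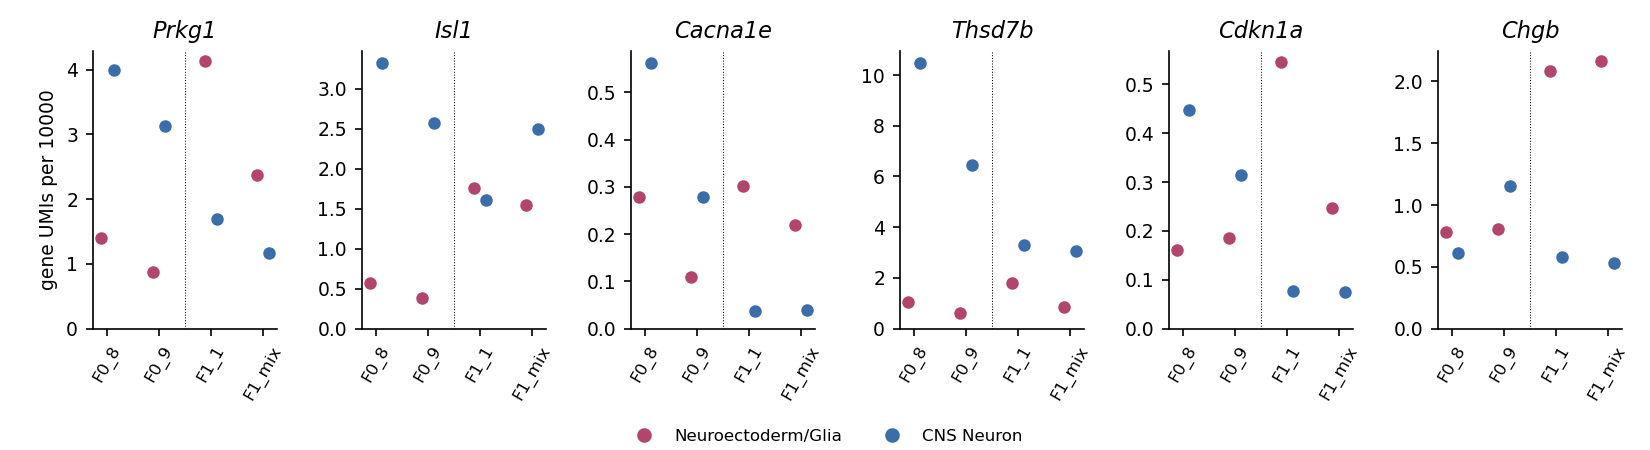
Levels (gene UMIs per 10000) in Neuroectoderm/Glia (red) and CNS Neuron (blue) by suspension for the 6 genes with the lowest p-values of the interaction, with a dotted line between founders and F1. For Prkg1 the red points lie below the blue ones in F0_8 and F0_9 and above them in F1_1 and F1_mix, and for Thsd7b the blue points lie above in all 4 with a gap that narrows.

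In the plot by generation, Prkg1, Cacna1e, Cdkn1a and Thsd7b have the same cluster higher in both suspensions of a generation. The order differed between the F1 suspensions for Isl1 and between the founders for Chgb. As 1 embryo or mixture stands behind each point, generation and other differences between embryos cannot be told apart in it.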

How the data were processed

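Whole embryos had been dissociated with trypsin and EDTA, and cells had been tagged by suspension with CellPlex oligos and then sorted to remove debris. The suspensions were pooled and captured with a 3′ chemistry. The authors deposited filtered matrices of whole-number UMI counts per gene and cell, made with Cell Ranger against mm10 with the EGFP sequence added. They removed ambient RNA (SoupX) and doublets (DoubletFinder) and clustered with Seurat, and their table of cells gave the suspension and cell type used here. It held 5678 cells, fewer than the study's text gives. Its other 19 columns were not used, and no doublets were called again. The sources used here do not say whether SoupX changed the counts in the matrices or whether reads in introns were counted.

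Counts were summed over the cells of a cluster in a suspension. Genes were filtered with filterByExpr and scaled by TMM, and edgeR 4.0.16 (glmQLFit, glmQLFTest, R 4.3.3) was fitted with cluster and suspension as terms, with Benjamini-Hochberg adjustment over all 9913 genes. Both clusters of a suspension came from the same embryo or mixture, which is the source of the pairing. The interaction with generation was fitted with the same block. With 1 embryo or mixture per suspension, p-values measure the spread between these 4. DESeq2 1.42.0, other scaling, no filter, no pairing, thinned cells, cell filters and leaving out each suspension were alternatives. Shares of cells cover cells, not replicates, and counting intervals (95%, exact) cover counting error only. The depth of 990463 to 1860085 UMIs per sum puts 1 UMI at 0.0101 per 10000 or less. Gene length was the genomic span in RefSeq, by symbol, for 97.2% of gene features.

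The clusters, gene lists and tests were chosen with earlier results of these data known. Genes were named by a rule: the 12 largest called differences in each direction with the same sign in 4 of 4 suspensions and a level of at least 0.5 per 10000, leaving out mitochondrial, ribosomal, Y-linked and unnamed genes and Xist; up to 4 called members of each list and direction, with markers of transmitter and regional classes whether called or not; EGFP; and up to 6 genes of the interaction. Some genes that this rule names are not reported here.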

Additional observations from a re-analysis of the deposited data

Results flagged for a closer look

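Among 271 groups of 4 values that were examined for a suspension standing apart from the other 3 by Dixon's test, 16 were picked out, and chance gives about 1 in 20. EGFP was highest in F1_1 in both clusters, at 33.3 UMIs per 10000 in Neuroectoderm/Glia and 38.1 in CNS Neuron, where the other 3 suspensions lay at 12.7 to 14.9 and at 16.4 to 19.0. In Neuroectoderm/Glia, F1_1 stood apart with the lowest Chl1 (1.85) and the highest Ldhb (4.24), and F0_8 held the only UMI of Neurod4 and of Tlx2 (0.00538 each). In CNS Neuron, F0_8 stood apart with high Csmd3 (0.306), Reln (0.854) and Eya2 (3.84) and low Lhx1 (1.31), Glra1 (0.797) and Hes5 (0.199). There, F0_9 stood apart with high Chgb (1.16) and low Slc18a3 (0.00605), and F1_mix with high Cartpt (0.298) and a low median share of genes over 100 kb (17.4%).

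Named here are 6 genes that had a cluster difference that itself differed between founders and F1, by the interaction term over 2 suspensions of each. The interaction log2 fold changes were -2.81 for Prkg1 (adjusted p = 1.54e-04), -2.30 for Isl1 (0.0190), -3.78 for Cacna1e (0.0190), -2.02 for Thsd7b (0.0414), -3.40 for Cdkn1a (0.0422) and -2.05 for Chgb (0.0422). For Prkg1, Cacna1e and Cdkn1a the cluster with the higher level was CNS Neuron in both founders and Neuroectoderm/Glia in both F1 suspensions.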

How the results depend on the processing

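DESeq2 called 2221 genes (1248 higher in Neuroectoderm/Glia and 973 in CNS Neuron) in place of 3816, of which 2218 were among the 3816, and 5 interaction genes in place of 13. Thinning each cell to 5000 UMIs left 2541 calls, 1164 of them higher in CNS Neuron, among 7927 genes tested. Testing 16158 genes with no filter gave 227 interaction calls. Leaving out 1 suspension gave 2896 to 3489 calls and 21 to 60 interaction calls (36 without F0_8, 60 without F0_9, 21 without F1_1 and 35 without F1_mix), and the cause was not tested. For the interaction this leaves 1 suspension in a generation, which is assumed to vary like the 2 of the other. Without the replicate block, the pairing by suspension, 3749 genes were called, 3584 of them shared, and 9 interaction genes, and EGFP had a log2 fold change of -0.30 that did not pass (adjusted p = 0.501). Over the other alternatives EGFP kept its direction and call. No gene called in the main comparison changed sign under another setting in which it was tested, except 2 of the 3267 tested under thinning. Of the genes named in the text, calls were lost with DESeq2 for Actl6a, Adcyap1, Cbfa2t3, Cdkn1b, Dpysl4, Dusp1, Elavl3, Gad1, Isl1, Kcnq5, Lbx1, Ldhb, Lhx1, Lhx3 and Sox4, and for the interaction of Cacna1e, Cdkn1a and Chgb. Without the block they were lost for Adcyap1, Cbfa2t3, Gabrg3, Kcnq5, Lbx1, Lhx1, Onecut1 and Sox4, and for the interaction of Cacna1e and Thsd7b. Thinning lost the calls on Actl6a, Adcyap1, Cbfa2t3, Cdkn1b, Kcnq5, Sox4 and Ss18 and the interaction of Thsd7b. With no filter the call on Cbfa2t3 was lost and Lhx5 and Tubb3 were called, and without mitochondrial and ribosomal protein genes the calls on Cbfa2t3 and Sox4 were lost and Lhx5 was called. Other scaling and both filters on cells changed no call of a gene named in the text. The ratio of cells and the depth ratio moved by less than 1 SD or kept their direction under each alternative, and 4 pairs cannot pass the threshold of an exact test. Genes with few UMIs in both clusters were left out by the filter of the main fit, and the smallest difference detectable in them was not tested.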
